A study of Mus musculus with 39 samples.

Results

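Old and young lung monocytes from mice given ISRIB were compared across all genes that passed a filter on low counts, which left 12170 genes in 10 of the series' 39 RNA sequencing libraries. The 5 old and the 5 young libraries came from naive C57BL/6J mice, which had no bleomycin, and were labelled as sorted lung monocytes treated with ISRIB. Per the labels the young mice were 8 to 12 weeks old and the old mice over 18 months old. The ages in the series text differ, at 3 to 5 and 18 to 24 months. That text gives a schedule for mice with bleomycin (daily intraperitoneal ISRIB or vehicle from day 7, cells taken on day 21), and the schedule in naive mice is not stated in the sources used here. A further 10 monocyte libraries came from young and old naive mice given saline, 5 each, and share none of the 10 libraries compared. Siglec F-low alveolar macrophages of young (4 libraries) and old (5 libraries) mice given bleomycin and ISRIB served as a second cell type. The labels do not say whether replicates were separate animals, so p-values measure only the spread between these samples. In a bulk sample, fewer cells of a type and less RNA per cell cannot be told apart.

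The integrated stress response begins when a kinase phosphorylates the translation factor eIF2, which then blocks its own exchange factor, eIF2B. General protein synthesis falls while a few mRNAs, such as that of the transcription factor Atf4, are translated better. ISRIB binds eIF2B, holds the complex in its active form and so relieves the block. Lung monocytes are a mixture of classical cells (high Ly6c2 and Ccr2), which enter inflamed tissue and can become macrophages, and nonclassical cells (high Nr4a1 and Cx3cr1), which patrol blood vessels.

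No gene passed the test between old and young ISRIB monocytes. With edgeR's quasi-likelihood test and Benjamini-Hochberg adjustment, 0 of 12170 genes (0%) had an adjusted p under 0.05, with 0.0672 as the lowest value. Before adjustment 803 genes (6.60%) had a p under 0.05, of which 500 had the higher mean in old mice (4.11%) and 303 the lower (2.49%). DESeq2 called 14 genes and limma voom 1. The call count also depended on single libraries: it was 7 without old replicate 1 and 17 without old replicate 2, and 0 without any other of the 10. In 110 genes (0.904%) every old library was above every young one, and in 72 genes (0.592%) every old library was below. The values below are therefore given as measured levels, and none of these age differences was called by the edgeR test.

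The 10 libraries held 6931120 to 12054950 counts each and 15122 to 16317 genes with a count. All 15 classical monocyte markers and all 21 nonclassical markers were detected, and their summed CPM (counts over the library total, without the scaling factor used below) overlapped between ages: 15800 to 24900 in young and 17900 to 20000 in old libraries for the classical list, 5500 to 11000 and 6200 to 9220 for the nonclassical list. Among lists of other cells, the T and NK cell list summed to 44.6 to 273 CPM in young and 141 to 366 CPM in old libraries. The B cell list summed to 270 to 400 and 316 to 380 CPM, and the neutrophil list to 533 to 841 and 548 to 626 CPM. The plasma cell list summed to 446 to 528 and 430 to 559 CPM, and the list for basophils, mast cells and eosinophils to 6.85 to 20.3 and 6.89 to 62.7 CPM. The dendritic cell list summed to 569 to 653 CPM in young and 465 to 545 CPM in old libraries, which did not overlap. The alveolar macrophage list summed to 994 to 2230 and 741 to 1190 CPM. The lists for epithelium (448 to 536 and 434 to 524 CPM), endothelium (115 to 220 and 111 to 145 CPM) and fibroblasts (180 to 208 and 173 to 203 CPM) overlapped, and Nkx2-1, Aqp5, Prox1, Dcn, Lum and Tcf21 were at 0 counts in all 10. The red blood cell list summed to at most 0.847 CPM, with Car1 at 0. Their part in the age differences was not tested. Ddx3y, on the Y chromosome, was detected in all 10 libraries and Xist in 1, at 0.552 CPM. Nnt, which carries a deletion in C57BL/6J, was at 25.7 ± 3.25 CPM in young and 19.7 ± 3.78 CPM in old libraries, and Wdfy1 at 30.7 ± 3.53 and 32.3 ± 3.05 CPM (SD, n = 5 each). Young saline replicate 4 stood apart from all other monocyte libraries, with 4595331 counts and a first principal component score of 121.8. It is not in the comparison but it enters the spread estimate, and the count of called genes was also 0 without it.

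Core markers of monocyte identity showed no called difference between ages. Csf1r, the receptor for the growth factor that monocytes need, had 2190, 1890, 2400, 2360 and 1980 TMM-scaled CPM (CPM after edgeR's trimmed mean scaling) in young replicates 1 to 5 and 2170, 2360, 2320, 2120 and 2210 in old ones. The log2 difference, old minus young here and below, was 0.05 ± 0.10 (SE, adjusted p = 0.99). Ly6c2 was at 457 ± 161 CPM in young and 393 ± 70.7 CPM in old libraries (SD, n = 5 each; edgeR adjusted p = 0.94). Ccr2, the receptor that draws classical monocytes to tissue, was at 1970 ± 703 and 1760 ± 223 CPM (SD, n = 5 each; edgeR adjusted p = 0.98). Cx3cr1 was at 610 ± 161 and 471 ± 97 CPM, and Nr4a1, the factor that nonclassical monocytes depend on, at 2020 ± 476 and 2420 ± 686 CPM (SD, n = 5 each). The groups overlapped for all of these genes. In the whole classical list, 2 of 14 tested members were higher and 1 lower at an unadjusted p under 0.05, beside 4.11% and 2.49% of all genes. Their log2 differences ran from -0.86 to 0.87. In 1 member every old library was above every young one, beside 0.904% of all genes. In the nonclassical list 6 of 21 were positive and 15 negative, with 1 higher and 0 lower at that p.

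The smallest p belonged to Rbm3, on chromosome X, which encodes an RNA-binding protein known for its induction by cold. It had 119, 111, 125, 124 and 130 CPM in young replicates 1 to 5 and 179, 192, 190, 201 and 225 CPM in old ones. Every old library was above every young one, and the spread within each age was narrow. The log2 difference was 0.70 ± 0.13 (SE, edgeR adjusted p = 0.0672). In saline monocytes the difference was 0.29, with young libraries at 98.4 to 170 CPM and old ones at 143 to 185 CPM, so those groups overlapped. Rbm3 was called when only the 10 ISRIB libraries were fitted.

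Bmpr1a, on chromosome 14, encodes a type I receptor for bone morphogenetic proteins. It was at 0.438, 0, 0, 0.659 and 0.125 CPM in young and 2.96, 1.38, 7.07, 6.51 and 5.28 CPM in old ISRIB libraries, which is 11 counts in all against 191. The groups did not overlap in saline either, where 3 counts stood against 192. The log2 difference was 4.12 ± 0.77 with ISRIB (SE, edgeR adjusted p = 0.0672) and 5.59 with saline, where it was called (edgeR adjusted p = 0.0140). In the macrophages, mean levels were 1.55 CPM in young and 13.3 CPM in old ISRIB libraries.

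Gm7609, C130026I21Rik and A530040E14Rik lie in one stretch of chromosome 1. Gm7609 is a transcribed pseudogene at chr1:85199613-85213786, and A530040E14Rik an antisense gene at chr1:85105946-85114035 (GRCm38, GENCODE vM21). Both lie within the span of C130026I21Rik, at chr1:84992690-85270566 on the opposite strand, and the strand setting of the counting is not given in the sources used here, so reads could not be assigned to one of them with certainty. Gm7609 had 0 counts in all young ISRIB libraries and 42 in the 5 old ones, at least 13.3-fold higher with 3 counts over the young group as the floor. It also had 0 counts in young and 85 in old saline libraries. C130026I21Rik was at 1.98 ± 0.49 CPM in young and 5.53 ± 0.64 CPM in old ISRIB libraries, and A530040E14Rik at 1.66 ± 0.40 and 5.98 ± 1.77 CPM (SD, n = 5 each). For all 3 genes, the levels of the old ISRIB libraries were above those of every young ISRIB library. With saline, C130026I21Rik and A530040E14Rik overlapped between ages. C130026I21Rik was at 2.35 to 3.48 CPM in young and 3.24 to 6 CPM in old saline libraries, and A530040E14Rik at 1 to 4.26 and 3.5 to 7.59 CPM.

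Adam19, which encodes a membrane metalloprotease that sheds growth factors, was at 56.3, 60.5, 78, 57.8 and 31.2 CPM in young and 92.1, 100, 125, 108 and 112 CPM in old libraries (log2 difference 0.92 ± 0.19 SE, edgeR adjusted p = 0.165). Ccl3, a chemokine of activated myeloid cells, was the 1 gene of these 10 with lower levels in old mice. It was at 45.2, 43.6, 39.3, 45 and 46.4 CPM in young and 35.6, 26.3, 18.4, 18 and 11.5 CPM in old libraries (log2 difference -0.99 ± 0.21 SE, edgeR adjusted p = 0.178). Old and young did not overlap for either gene, and both also differed without overlap and in the same direction in saline monocytes. Of the 110 genes with all old ISRIB libraries above the young, 7 showed this in saline as well (Gm7609, Bmpr1a, Adam19, Snora57, Kcnc1, Eogt and H2-DMb1), where 1.08% of all genes did. Of the 72 in the other direction 3 did (Ccl3, Trmt10b and Stat6), against 0.419% of all genes.

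**Figure D1:**
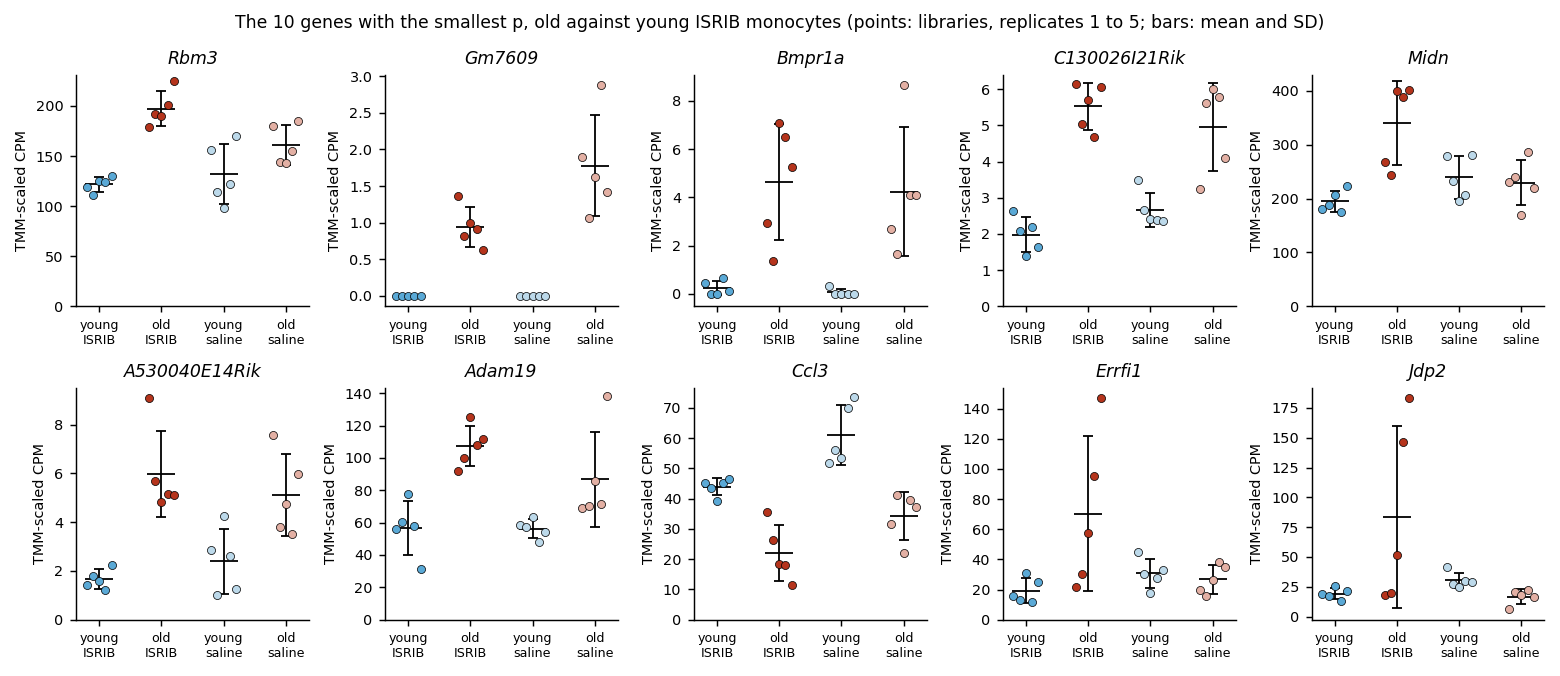
TMM-scaled CPM of the 10 genes with the smallest p in each of 20 naive monocyte libraries, with group means and SDs. Rbm3 sits at 111 to 130 CPM in young and 179 to 225 CPM in old ISRIB libraries, Gm7609 is at 0 in all 10 young libraries, and Errfi1 and Jdp2 spread widely among the old ISRIB libraries.

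Midn, Errfi1 and Jdp2, also among the 10, had their highest values in old replicates 3, 4 and 5. Midn, which encodes midnolin, a nuclear protein linked to degradation of immediate early factors, was at 180, 188, 206, 175 and 224 CPM in young and 268, 244, 399, 388 and 402 CPM in old libraries (log2 difference 0.81 ± 0.15 SE, edgeR adjusted p = 0.0672). Errfi1, a feedback inhibitor of EGF receptor signalling, was at 15.4, 13, 30.8, 11.5 and 24.7 CPM in young and 21.5, 30.4, 57.6, 95.6 and 147 CPM in old libraries. Jdp2, a repressor that pairs with Jun proteins, was at 19.1, 17.3, 25.5, 13 and 21.5 CPM in young and 17.9, 19.7, 52, 146 and 183 CPM in old ones. Midn did not overlap between ages. Errfi1 and Jdp2 did, since old replicates 1 and 2 lay within the young range.

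The same 3 old libraries held the highest levels of other early-response genes, singled out here after their values were seen. Nr4a3, an orphan nuclear receptor of the same family as Nr4a1, was at 2.63, 3.73, 8.82, 3.4 and 15.2 CPM in young and 5.23, 4.80, 38.6, 190 and 259 CPM in old libraries. Crem, a transcription factor that responds to cyclic AMP, was at 14.4, 6.08, 14, 11 and 22 CPM in young and 14, 10.1, 49.1, 147 and 195 CPM in old ones. Nr4a2 was at 38.5 to 129 CPM in young libraries and 118, 104, 342, 512 and 417 CPM in old ones. Old replicates 1 and 2 thus lay inside the young range for Nr4a3, Crem and Nr4a2.

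Fosl2, an AP-1 subunit, was at 383 to 965 CPM in young and 648, 699, 1680, 2560 and 2380 CPM in old libraries. Vegfa, the vascular growth factor, was at 9.39 to 52.4 CPM in young and 27.5, 21.1, 135, 201 and 203 CPM in old libraries. Il1b, which encodes the inflammatory cytokine interleukin-1 beta, was at 114 to 659 CPM in young and 399, 431, 1040, 1400 and 1230 CPM in old ones. Cd83, a surface marker of activated myeloid and B cells, was at 1.93 to 47.2 CPM in young and 16.7, 23.7, 226, 333 and 299 CPM in old libraries. For each of these 4 genes, old replicates 1 and 2 again lay within the young range and the other 3 above it.

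Not every early-response gene shared that pattern. Fos and Jun, which form the AP-1 factor, were lowest in old replicates 4 and 5: Fos was at 4000 to 5290 CPM in young and 5210, 5210, 3280, 1910 and 1170 CPM in old libraries, and Jun at 490 to 789 CPM in young and 646, 512, 377, 251 and 136 CPM in old ones. The log2 differences were 3.88 for Nr4a3 (edgeR adjusted p = 0.274), 2.61 for Crem (edgeR adjusted p = 0.274) and -0.71 for Jun (edgeR adjusted p = 0.674).

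Transcripts of IgA were also highest in these 3 of the 10 libraries. Igha, the IgA heavy chain gene, was at 0, 0.325, 71.1, 61.1 and 23.7 CPM in old replicates 1 to 5 and at 0 counts in all young ISRIB libraries. Jchain, which joins IgA dimers, was at 0, 0.976, 8.93, 6.62 and 2.95 CPM in old and at most 0.531 CPM in young libraries. Neither gene passed the filter on low counts when only the 10 ISRIB libraries were fitted. They were singled out after their values were seen, from a plasma cell list whose sum did not follow them: it was 511, 559, 535, 501 and 430 CPM in old replicates 1 to 5. Of its 6 tested members 4 had a positive and 2 a negative difference, and Tnfrsf17 and Ighg1 were at 0 counts in all 10 libraries. Both IgA genes were also detected in old saline libraries, Igha at 51.6 CPM in replicate 1 and 26.5 CPM in replicate 5. Crem was at 7.37 and 16 CPM there, and Crem, Nr4a3, Fosl2 and Il1b lay within the young ISRIB range in both replicates. Vegfa and Cd83 were above that range in replicate 5, at 61.5 and 73.6 CPM, and Nr4a2 in both, at 130 and 137 CPM. The list for basophils, mast cells and eosinophils was highest in the same 3 of the 10 libraries, at 6.89, 7.8, 32.3, 62.7 and 41 CPM in old replicates 1 to 5. Cpa3, Fcer1a, Tpsb2, Epx and Prss34 were at 0 counts in all 10, and 3 of its 17 members were tested, all with a positive difference. Among them Hdc, which encodes the enzyme that makes histamine, was at 4.86 ± 3.83 CPM in young and 22.4 ± 20.7 CPM in old libraries (SD, n = 5 each; edgeR adjusted p = 0.381). The first principal component of the 10 libraries, 25.4% of the variance, placed old replicates 5, 4 and 3 at scores of 50.9, 39 and 16.8, and the other 7 libraries between -36.5 and 1.2. The part of these cell type lists and of the differences between libraries in the age comparison was not tested, and the labels give no batch for them.

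**Figure D2:**
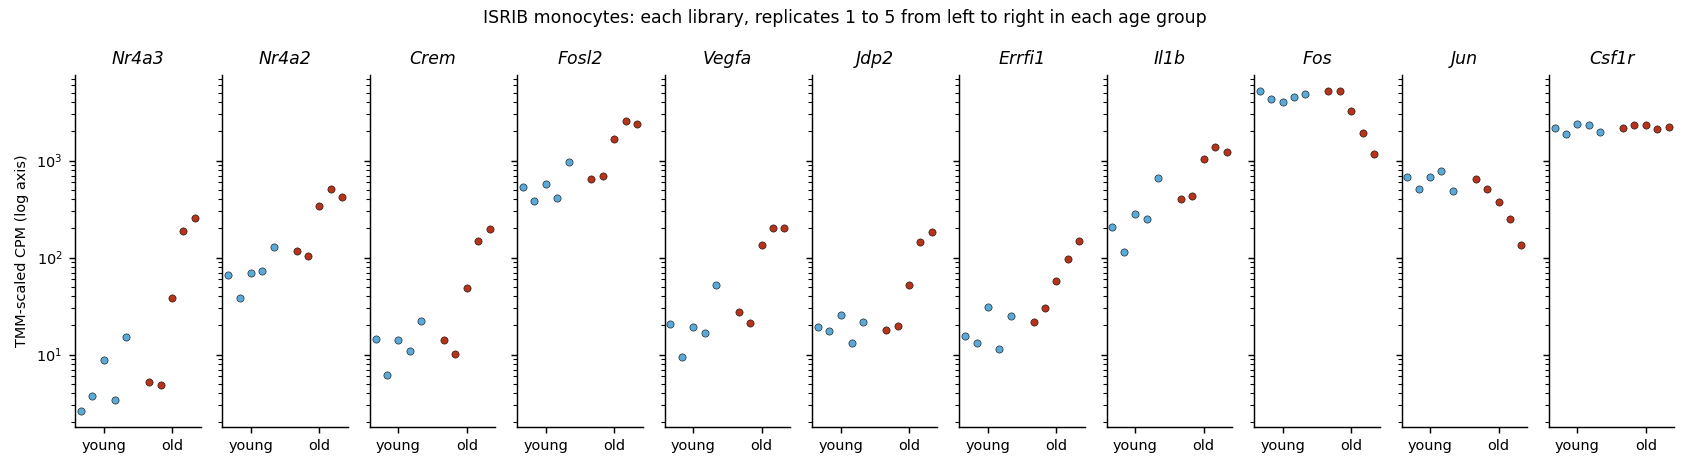
TMM-scaled CPM on a log axis of 10 early-response and inflammatory genes, and of Csf1r for comparison, in each ISRIB monocyte library. For Nr4a3 old replicates 1 and 2 sit at 5.23 and 4.80 CPM among the young libraries and old replicates 3, 4 and 5 at 38.6, 190 and 259 CPM, while Fos and Jun are low in old replicates 4 and 5 and Csf1r stays between 1890 and 2400 CPM.

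As a list, the 25 immediate early genes (all tested) had a median log2 difference of 0.30, beside -0.01 over all 12170 genes, of which 48.7% were positive. The difference was positive for 18 members. At an unadjusted p under 0.05, 9 members were higher in old mice (4.11% of all genes were) and 1, Jun, was lower (2.49% of all genes were). No member was called. Summed TMM-scaled CPM of the list was 17500 to 23800 in young libraries and 25400, 24700, 25300, 20300 and 16400 in old replicates 1 to 5. The sums thus overlapped between ages, and the lowest of the 10 was in old replicate 5. Promoters are described because several members and the genes above had high values in the same libraries. Of the 3 promoters printed below, that of Nr4a3 belongs to the list. Errfi1 and Jdp2 are not in the list but among the genes with the smallest p. Nr4a3 and Jdp2 were picked for printing after their values were seen. The cyclic AMP response element TGACGTCA was searched on both strands in the 250 bases before to 50 after each start. It was present in 1.79% of 32851 RefSeq promoters and in 3 of 31 promoters of the list's genes. Those 3, of Btg2, Dusp1 and Maff, are not printed. Of the 10 genes with the smallest p, 9 had a promoter in the table, and Errfi1 held the element. The shorter form TGACG, which every full element contains, was in 20.8% of all promoters and 21 of 31 of the list's. Among promoters of the genes with the smallest p it was in 3 of 15 (20%), near the share of all promoters. The full element was also in 6 of 68 promoters of cytosolic ribosomal protein genes, and the shorter form in 31 of 68. The sequences run 5′ to 3′ along the gene to the base before the start, from RefSeq on GRCm38.p6, with the full element (Errfi1) or the shorter form on either strand (Nr4a3, Jdp2) in capitals. The Errfi1 window is chr4:150854820-150855069, plus strand, that of Nr4a3 chr4:48045055-48045304, plus strand, and that of Jdp2 chr12:85599166-85599415, plus strand.
Errfi1: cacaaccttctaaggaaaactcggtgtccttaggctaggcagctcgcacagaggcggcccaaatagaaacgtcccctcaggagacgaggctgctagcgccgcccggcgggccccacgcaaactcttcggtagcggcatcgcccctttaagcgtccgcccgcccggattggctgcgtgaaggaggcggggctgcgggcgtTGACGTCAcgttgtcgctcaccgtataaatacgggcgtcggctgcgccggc
Nr4a3: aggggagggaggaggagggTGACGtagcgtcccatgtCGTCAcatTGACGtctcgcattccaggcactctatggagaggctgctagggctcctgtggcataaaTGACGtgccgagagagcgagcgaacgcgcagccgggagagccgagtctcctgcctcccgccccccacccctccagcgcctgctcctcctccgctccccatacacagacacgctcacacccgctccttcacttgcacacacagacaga
Jdp2: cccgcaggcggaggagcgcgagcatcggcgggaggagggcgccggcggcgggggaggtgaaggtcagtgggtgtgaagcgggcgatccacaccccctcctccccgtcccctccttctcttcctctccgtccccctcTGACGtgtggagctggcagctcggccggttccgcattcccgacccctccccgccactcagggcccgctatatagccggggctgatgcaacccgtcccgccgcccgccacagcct
A match is a description of the letters and shows no binding. Nr4a3 held 4 copies of the shorter form in this window and Jdp2 held 1.

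Inflammatory cytokine and NF-kB genes had a median log2 difference of 0.38 over 30 tested members, 24 of them positive. At an unadjusted p under 0.05, 10 were higher and 0 lower in old mice, beside 4.11% and 2.49% of all genes. Nfkb2, a subunit of the noncanonical NF-kB pathway, was at 179 ± 36.2 CPM in young and 251 ± 30.9 CPM in old libraries (SD, n = 5 each). Nfkbie, an inhibitor of NF-kB, was at 77.9 ± 13.5 and 140 ± 40.4 CPM, and Nlrp3, the sensor of the inflammasome, at 219 ± 54.8 and 343 ± 139 CPM (SD, n = 5 each). Cxcl16, a chemokine held at the cell surface, was at 6.32 ± 1.78 and 11.5 ± 2.08 CPM. It was the 1 member without overlap between ages, beside 0.904% of all genes with old above young. Cd14, the co-receptor for lipopolysaccharide, was at 730 ± 404 and 1402 ± 766 CPM (SD, n = 5 each). The summed TMM-scaled CPM of the list was 6120 to 8450 in young libraries and 8210, 7840, 8570, 9490 and 9480 in old replicates 1 to 5. Old replicates 3, 4 and 5, the libraries with the high early-response genes, were above the young range and replicates 1 and 2 within it. Over the library total the young maximum was 8160 CPM and old replicate 1, at 8290 CPM, was above it too.

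Genes of the integrated stress response, the pathway that ISRIB acts on, had a median log2 difference of 0.06 over 32 tested of 42 members, 20 positive and 12 negative. At an unadjusted p under 0.05, 7 were higher in old mice (Vegfa, Cebpb, Atf4, Slc3a2, Ddit3, Slc7a5 and Slc7a11) and 0 lower, beside 4.11% and 2.49% of all genes. Atf4, the central factor of the response, was at 169, 151, 202, 159 and 212 CPM in young and 176, 197, 278, 311 and 382 CPM in old libraries. Old replicates 3, 4 and 5 were above all young libraries, and the log2 difference was 0.59 ± 0.20 (SE, edgeR adjusted p = 0.528). Ddit3, which encodes the stress factor CHOP, was at 5.94 to 11.3 CPM in young and 10.4, 8.22, 14, 17.9 and 21.3 CPM in old libraries. Cebpb, a basic leucine zipper factor of myeloid cells, was the 1 member without overlap, beside 0.904% of all genes with old above young. It was at 820 ± 98.1 CPM in young and 1161 ± 143 CPM in old libraries (SD, n = 5 each; edgeR adjusted p = 0.381). Ppp1r15a, the phosphatase subunit that ends the response, was at 185, 114, 206, 201 and 207 CPM in young and 250, 234, 235, 160 and 106 CPM in old libraries, where its lowest value was in old replicate 5.

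The target of ISRIB and its regulators showed no called difference. Of 16 genes for eIF2, eIF2B and the eIF2 kinases, all tested, 4 had a positive and 12 a negative log2 difference, with a median of -0.03, and 0 had an unadjusted p under 0.05. Among the subunits of eIF2B, Eif2b1 was at 21.1 ± 4.03 CPM in young and 17.4 ± 2.16 CPM in old libraries, and Eif2b4 at 26.1 ± 3.45 and 21.3 ± 3.09 CPM (SD, n = 5 each). Eif2b2 was at 39.9 ± 6.96 and 39.2 ± 6.78 CPM, Eif2b3 at 6.48 ± 2.29 and 8.36 ± 1.99 CPM, and Eif2b5, the catalytic subunit, at 34.5 ± 4.67 and 34 ± 4.89 CPM (SD, n = 5 each). Eif2s1, the subunit that is phosphorylated, was at 52.2 ± 7.85 and 43.0 ± 10.2 CPM (SD, n = 5 each). All 16 overlapped between ages. In other protein quality lists, 4 of 18 cytosolic heat shock genes and 11 of 25 endoplasmic reticulum chaperone genes had a positive difference, with medians of -0.13 and -0.08.

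Genes for the proteins of the cytosolic ribosome all pointed the same way. All 79 tested members of 79 had a positive log2 difference, from 0.09 (Rpl23a) to 0.61 (Rpl24), with a median of 0.23. Their summed TMM-scaled CPM was 24800, 21600, 25000, 25700 and 25800 in young replicates 1 to 5 and 27000, 27200, 28100, 27100 and 34700 in old ones, so every old library was above every young one. Over the library total, old replicate 5 (scaling factor 0.932) was at 32300 CPM, the other old libraries at 26600 to 27800 CPM and the young ones at 22200 to 26400 CPM, again without overlap. Old replicate 5 was the highest on both scales, and without it 78 of 79 were positive with a median of 0.16. In 29 members the old and young libraries did not overlap, beside 0.904% of all genes, and 13 had an unadjusted p under 0.05, beside 4.11% of all genes. None was called. The count at an unadjusted p under 0.05 depended on the setting: it ranged from 3 to 52 over the other fits. It was 52 without young saline replicate 4, which changes the spread estimate. Rps2 was at 250.5 ± 14.3 CPM in young and 307 ± 19.4 CPM in old libraries, Rpl7a at 393 ± 33.9 and 478 ± 33.5 CPM, and Rps3 at 689 ± 63.4 and 847 ± 105 CPM (SD, n = 5 each). Ribosomal protein genes have many processed pseudogenes, and how reads shared with them were counted is not given in the sources used here. Members share a library and a normalization, so their number is not a number of independent results.

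In saline monocytes the sign of the ribosomal difference was mostly negative and rested on 1 library. There, 1 of 79 had a positive difference and the median was -0.17, with young libraries at 29000, 23200, 23500, 44500 and 27300 summed TMM-scaled CPM and old ones at 24600, 24100, 28900, 25100 and 28900. Young replicate 4 was by far the highest, and without it 56 of 79 were positive with a median of 0.04. The test of the difference between the ISRIB and the saline age effect called none of the 79. At an unadjusted p under 0.05, 21 were more positive with ISRIB, beside 3.94% of all genes, and this count was 5 without young saline replicate 4. The median difference between the age effects was 0.40 with that library and 0.21 without it.

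**Figure D3:**
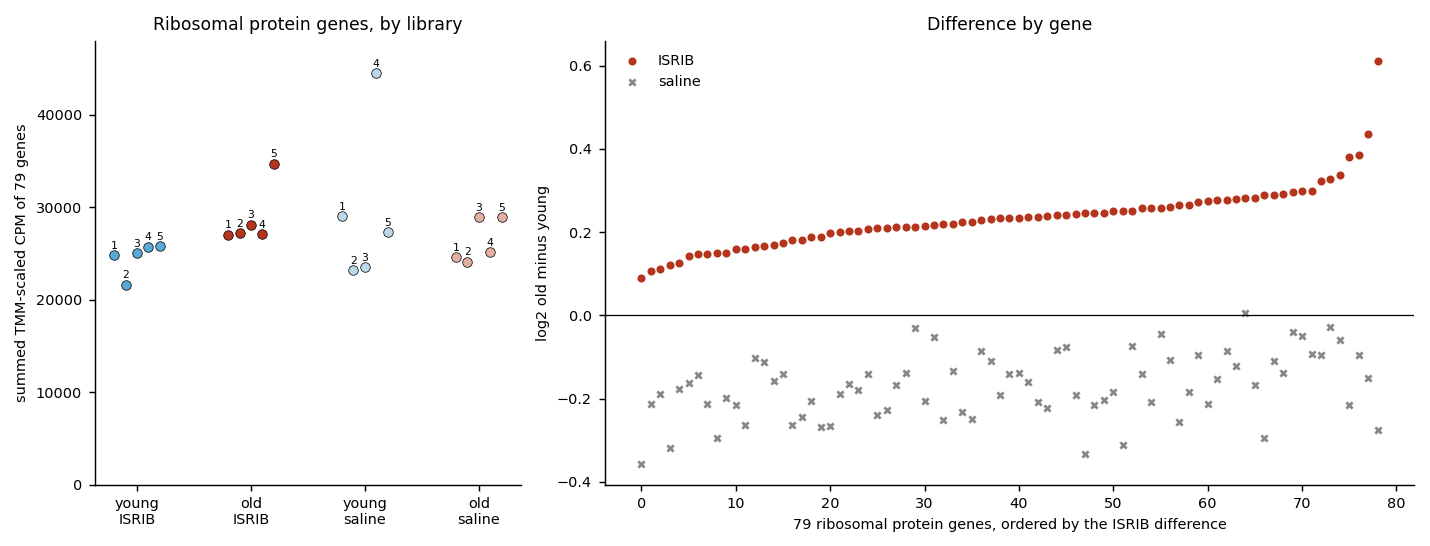
Left, summed TMM-scaled CPM of 79 ribosomal protein genes in each naive monocyte library, with the replicate number above each point. Right, log2 old minus young of each gene with ISRIB (circles, all above 0) and saline (crosses). Young saline replicate 4 stands at 44500 CPM, above all other libraries.

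Ribosomal protein mRNAs are known for a pyrimidine tract at their 5′ end that couples their translation to growth signals. The letters CTTTCC were searched within 20 bases of the start, on the strand that reads like the mRNA. Of the list's 79 genes, 58 had an entry. The letters were in 1.95% of all RefSeq promoters and in 10 of 68 promoters of this list. Of these, 3 are shown, those with the smallest p, from 50 bases before to 30 after the start with the letters in capitals. Rpl13a is shown from chr7:45128716-45128795, minus strand, Rpl15 from chr14:18270957-18271036, minus strand and Rps10 from chr17:27635215-27635294, minus strand.
Rpl13a: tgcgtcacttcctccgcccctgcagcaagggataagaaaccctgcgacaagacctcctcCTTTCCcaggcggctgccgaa
Rpl15: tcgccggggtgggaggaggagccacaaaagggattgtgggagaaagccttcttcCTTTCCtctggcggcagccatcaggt
Rps10: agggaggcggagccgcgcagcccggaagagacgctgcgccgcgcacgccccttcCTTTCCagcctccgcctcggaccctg
Rpl13a was at 562 ± 58.3 CPM in young and 709 ± 103 CPM in old libraries (SD, n = 5 each), Rpl15 at 117 ± 7.44 and 138 ± 19.7 CPM, and Rps10 at 149 ± 17.4 and 175 ± 17.3 CPM. The 3 genes had log2 differences of 0.34, 0.24 and 0.23.

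Nuclear genes of oxidative phosphorylation had a positive difference in 64 of 75 tested members, with a median of 0.11. At an unadjusted p under 0.05, 1 was higher (Uqcrq, a subunit of complex III, at 39.8 ± 4.29 CPM in young and 53.3 ± 8.44 CPM in old libraries, SD, n = 5 each), which is below the 4.11% of all genes. Ndufa11, of complex I, and Atp5l, of the ATP synthase, did not overlap between ages, at 18.8 ± 0.78 against 25 ± 1.95 CPM and 8.09 ± 0.97 against 11.1 ± 1.84 CPM (SD, n = 5 each). They were 2 of the 75, beside 0.904% of all genes with old above young. Of 7 tested mitochondrially encoded genes 1 had a positive difference, with a median of -0.03. The proteasome had 26 positive of 36, with a median of 0.05.

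Type I interferon-stimulated genes, which encode antiviral proteins, pointed the other way. Of 49 tested members, 45 had a negative log2 difference, with a median of -0.24 and a range from -2.09 to 0.14. At an unadjusted p under 0.05, 4 were lower in old mice (Ifi44, Oas1g, Oas3 and Usp18), beside 2.49% of all genes, 0 were higher, and in 0 did the ages not overlap. Oas3, a sensor of double-stranded RNA, was at 192 ± 65.9 CPM in young and 131 ± 48.8 CPM in old libraries, Oas1g at 10.3 ± 5.62 and 3.54 ± 1.30 CPM, and Usp18, the inhibitor of interferon receptor signalling, at 35.9 ± 9.67 and 23.2 ± 10.4 CPM (SD, n = 5 each). Summed TMM-scaled CPM was 9070, 7960, 5550, 7010 and 9030 in young and 8700, 5760, 7940, 5810 and 5900 in old libraries, so high and low libraries occurred at both ages. Left-out libraries moved the median between -0.34 and -0.11. In saline monocytes the median was -0.17.

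The core of the interferon-stimulated response element, GAAA repeated after any 2 bases, on either strand, was in 3.44% of all RefSeq promoters and in 24 of 40 promoters of this list, for which 35 of the 49 genes had an entry. The 2 members with the smallest p that held it are shown over the 150 bases before the start, with the core in capitals. Oas1g lies at chr5:120887614-120887763, minus strand, and Oas3 at chr5:120777660-120777809, minus strand.
Oas1g: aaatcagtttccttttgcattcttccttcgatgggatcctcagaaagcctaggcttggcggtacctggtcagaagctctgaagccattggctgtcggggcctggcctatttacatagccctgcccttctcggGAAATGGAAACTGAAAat
Oas3: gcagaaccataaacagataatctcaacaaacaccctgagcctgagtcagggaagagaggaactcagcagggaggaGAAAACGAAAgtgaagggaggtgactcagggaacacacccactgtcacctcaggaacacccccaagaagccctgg
In Oas1g the capitals are overlapping cores. Oas1g has close paralogs in the Oas1 family, and reads shared among them make its level uncertain.

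Genes of MHC class II antigen presentation had a positive difference in 10 of 11 tested members, with a median of 0.46. H2-Ab1, a beta chain, was at 371, 321, 502, 644 and 321 CPM in young and 909, 603, 628, 660 and 516 CPM in old libraries (log2 difference 0.62 ± 0.35 SE, edgeR adjusted p = 0.844), and these overlapped. H2-DMb1, part of the H2-DM complex that loads peptide, did not overlap, at 90.6 ± 10.5 CPM in young and 121 ± 20.2 CPM in old libraries (SD, n = 5 each), and had the 1 unadjusted p under 0.05. It was 1 of 11 without overlap, beside 0.904% of all genes with old above young. The list's median was 0.91 in saline monocytes. In the same libraries the T and NK cell list, whose sums are given above, had a positive difference in 22 of 26 tested members, with a median of 0.71 with ISRIB and 1.55 with saline. Ccl5, a chemokine of T and NK cells, was at 6.25 ± 4.86 CPM in young and 23.4 ± 12.5 CPM in old ISRIB libraries (SD, n = 5 each; log2 difference 1.89, edgeR adjusted p = 0.334). In saline it rose by 3.59 on the log2 scale (edgeR adjusted p = 0.0140). The B cell list had a positive difference in 14 of 20 tested members, with a median of 0.22 with ISRIB and 0.92 with saline, and its summed CPM overlapped between ages in both (278 to 423 in young and 262 to 469 in old saline libraries). The part of both lists in the MHC class II values was not tested.

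None of the stress, cell cycle, clock and sterol synthesis genes was called. Cdkn1a, the cell cycle inhibitor p21, was at 220, 174, 218, 197 and 324 CPM in young and 255, 257, 490, 557 and 666 CPM in old libraries, again highest in old replicates 3, 4 and 5 (log2 difference 0.97 ± 0.28 SE, edgeR adjusted p = 0.381). Cdkn2a, a marker of senescence, had no count in the young libraries and was at 0.114 CPM in 1 old library. Spp1, which encodes osteopontin, was at 2.03 ± 1.07 and 2.39 ± 1.23 CPM (SD, n = 5 each). Of 22 senescence and p53 genes tested, 12 were positive and 10 negative, with a median of 0.01. Of 15 circadian clock genes tested, 11 were positive with a median of 0.29. Their summed TMM-scaled CPM was 1010 to 1330 in young libraries and 1210, 1290, 1680, 1820 and 1480 in old replicates 1 to 5, so that old replicates 3, 4 and 5 were again above the young range. Replicates 1 and 2 were within it, but over the library total replicate 2, at 1310 CPM, was above the young maximum of 1280 CPM. Tef, a clock output factor in this list, did not overlap between ages, at 29.1 ± 6.24 and 45.1 ± 2.49 CPM (SD, n = 5 each). It was 1 of 15 without overlap, beside 0.904% of all genes with old above young. Of 21 NRF2 antioxidant genes tested, 13 were positive with a median of 0.08. Sterol synthesis had 17 negative of 28 tested, with a median of -0.11, and cell cycle genes 16 negative of 31, with a median of -0.01. At an unadjusted p under 0.05, 4 NRF2 and 3 clock genes were higher in old mice and 0 lower. Senescence and p53 genes had 2 higher and 1 lower at that p. Sterol synthesis had 1 higher and 4 lower, and cell cycle genes 3 higher and 1 lower, beside 4.11% and 2.49% of all genes.

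**Figure D4:**
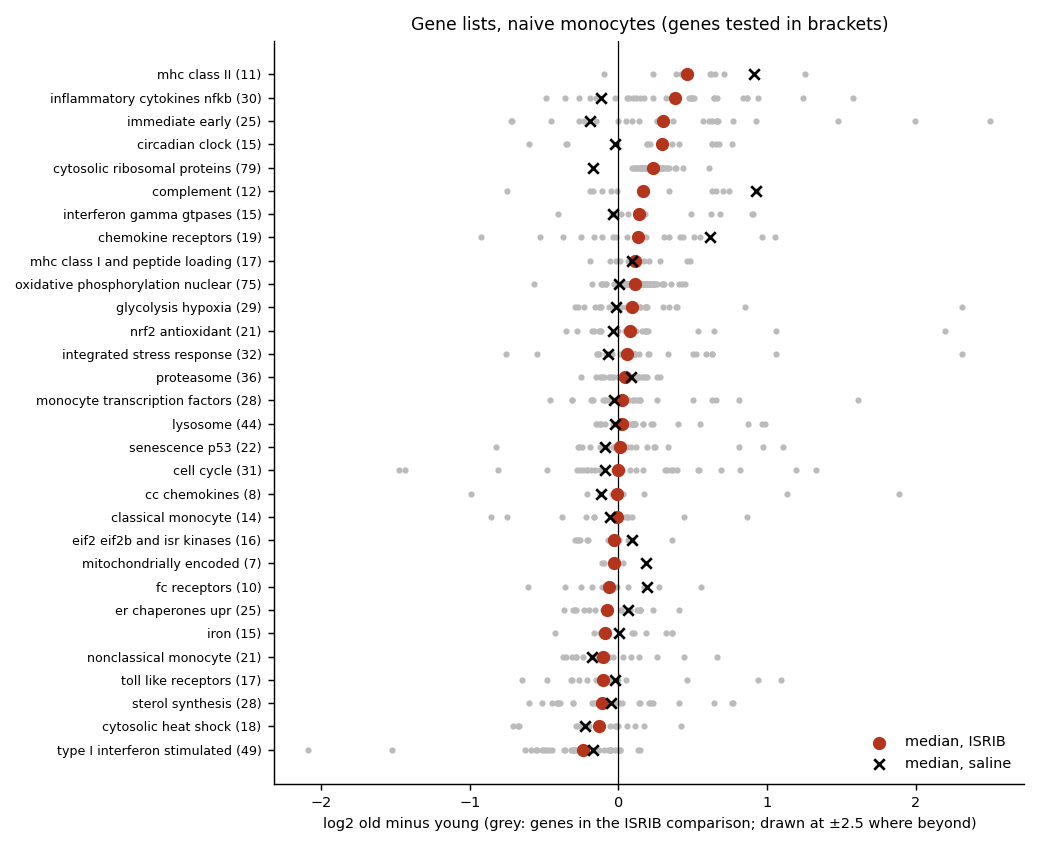
Median log2 old minus young of each gene list in ISRIB (circles) and saline (crosses) monocytes, with the ISRIB values of the members in grey. MHC class II has medians of 0.46 and 0.91, the ribosomal proteins 0.23 and -0.17, and the type I interferon-stimulated genes -0.24 and -0.17; grey values beyond 2.5 are drawn at 2.5.

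The age difference with ISRIB was next tested against that with saline. No gene was called (0 of 12170, 0%), with a smallest edgeR adjusted p of 0.478 and 865 genes at an unadjusted p under 0.05 (7.11%). DESeq2 and limma voom also called 0. In saline monocytes 3 genes were called between ages (0.0247%): Gm7609, Bmpr1a and Ccl5. Without adjustment, 1072 genes in saline had a p under 0.05 (8.81%). Of the 803 genes at an unadjusted p under 0.05 with ISRIB, 46.9% had the same sign of difference in saline, beside 51.5% of all genes. Among the early-response genes, the log2 difference between ages was 2.11 with ISRIB and -0.88 with saline for Jdp2, 3.88 and -1.46 for Nr4a3, 2.61 and -0.91 for Crem, and 0.97 and -0.68 for Cdkn1a. For each of these 4 genes the edgeR adjusted p of the difference between the age effects was 0.478. The young saline libraries were themselves uneven for these genes: Nr4a3 was at 36.5, 10, 3.91, 4.35 and 3.34 CPM in their replicates 1 to 5.

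The last comparison set the age difference of ISRIB monocytes against that of ISRIB macrophages, with cell type and bleomycin going together, so that they cannot be told apart. The difference between the age effects was called for 7 of 13587 genes (0.0515%). Col4a1 and Col4a2, neighbouring genes for collagen IV chains of basement membrane, were at similar levels in young and old monocytes (10.3 ± 3.31 and 11.3 ± 4.78 CPM, 2.49 ± 0.83 and 2.00 ± 0.53 CPM, SD, n = 5 each). In the macrophages, where 114 genes were called between ages (0.937%), both rose with age, Col4a2 from 3.54 ± 0.91 (SD, n = 4) to 41.4 ± 15.9 CPM (SD, n = 5; edgeR adjusted p = 2.33e-05), and Col4a1 from 3.79 ± 1.14 to 32.5 ± 8.56 CPM (edgeR adjusted p = 3.57e-05). The difference of age effects, monocytes minus macrophages, was -3.84 for Col4a2 (edgeR adjusted p = 0.000978) and -2.97 for Col4a1 (edgeR adjusted p = 0.00134). Ighm, the IgM heavy chain gene of B cells, was at 156 ± 31.3 and 146 ± 15 CPM in young and old monocytes and at 9.49 ± 4.09 and 191 ± 120 CPM in macrophages, a difference of -4.39 (edgeR adjusted p = 0.00134). The B cell list summed to 211 to 334 CPM in young and 506 to 882 CPM in old ISRIB macrophages, and its part in the Ighm result was not tested.

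Bambi, a decoy receptor that dampens TGF-beta and BMP signals, was at 8.33, 6.93, 11.2, 8.04 and 13.8 CPM in young and 15.5, 12.5, 21.6, 25.3 and 25.4 CPM in old monocytes. In macrophages it was at 4.63 ± 1.09 CPM in young (SD, n = 4) and 1.74 ± 0.85 CPM in old libraries (SD, n = 5). The difference of age effects was 2.45 (edgeR adjusted p = 0.00964), while neither age difference was called by itself (edgeR adjusted p = 0.302 in monocytes and 0.121 in macrophages). Zfp111, a zinc finger gene, was at 5.02, 4.80, 5.01, 4.72 and 5.21 CPM in young and 2.00, 3.04, 3.13, 1.45 and 1.81 CPM in old monocytes, against 5.60 ± 1.34 and 10.5 ± 3.15 CPM in macrophages, a difference of -2.0 (edgeR adjusted p = 0.0247). Basp1, a membrane-bound signalling protein, was at 2.05 ± 0.97 CPM in young and 5.09 ± 2.85 CPM in old monocytes (edgeR adjusted p = 0.601). In macrophages it fell from 90.4 ± 12.5 to 59.2 ± 5.34 CPM (edgeR adjusted p = 0.00764). The difference of age effects was 1.88 (edgeR adjusted p = 0.0389). Nxpe3 was at 11.2 ± 1.49 and 8.89 ± 2.71 CPM in monocytes. It had 0 counts in young macrophages and 49 in old ones, at least 12.8-fold higher with a floor of 3 counts over the young group, and its test was also past the threshold (edgeR adjusted p = 0.0301). DESeq2 called 57 genes and limma voom 1, and leaving out old monocyte replicate 1 or 2 gave 18 or 21 calls, so the number of genes depended on the tool and on these libraries. Leaving out old replicate 4, old replicate 5 or young macrophage replicate 3 gave 4 each.

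**Figure D5:**
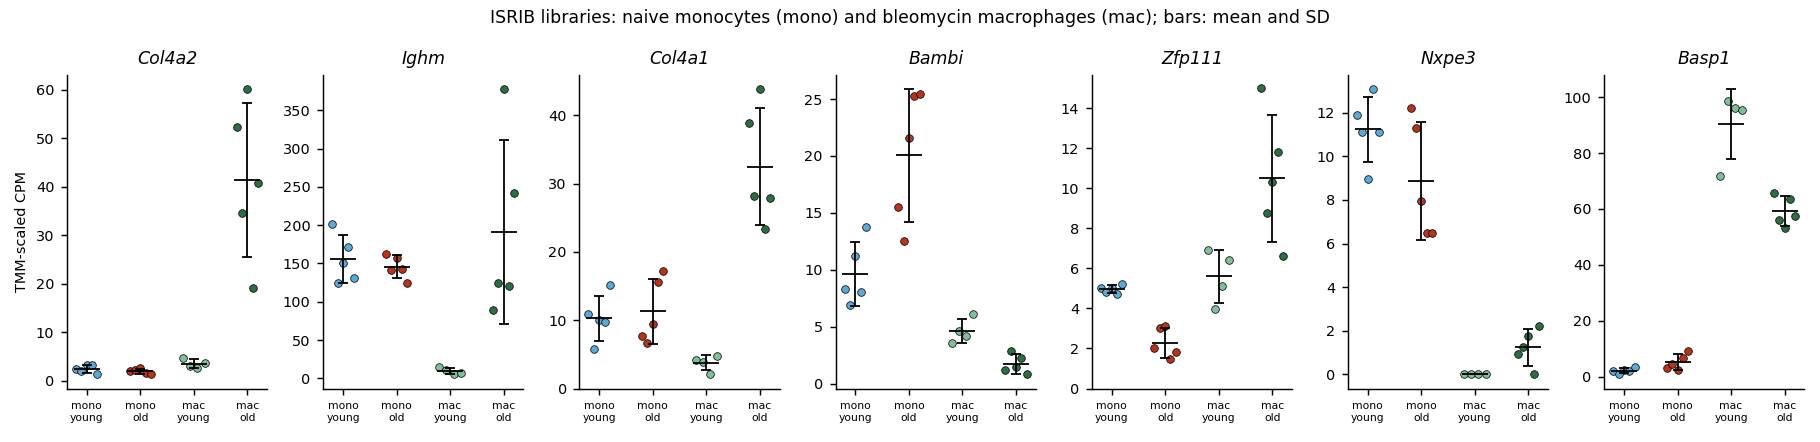
TMM-scaled CPM of the 7 genes whose age difference differed between ISRIB monocytes and ISRIB macrophages, by library with means and SDs. Col4a2 and Ighm are far apart between young and old macrophages and level in monocytes, while Bambi is at 20 ± 5.81 CPM in old and 9.65 ± 2.80 CPM in young monocytes.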

How the data were processed

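The authors deposited 1 table of counts for 39 libraries: unscaled whole read counts with 1 row for each Ensembl gene, per the file headers and the values. Libraries were polyA-selected from 3 ng of total RNA and sequenced on a NextSeq 500, per the labels' protocols and the series text. The submitters' processing notes name bcl2fastq 2.19.1, FastQC, Trimmomatic 0.36, STAR 2.6.0 and HTSeq 0.11.2 and the genome mm10; no setting, annotation or strandedness is stated in these sources, so antisense and overlapping genes cannot be told apart. Of 43430 gene IDs, 42546 had a symbol in GENCODE vM21 (98.0%).

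Old and young ISRIB monocytes were tested with edgeR 4.0.16 in R 4.3.3 (filterByExpr with a minimum count of 10 and total of 15, TMM scaling, quasi-likelihood test, Benjamini-Hochberg adjustment over all genes tested, called at an adjusted p under 0.05). The 20 monocyte libraries were fitted with 1 mean for each of 4 groups; the comparison with macrophages used all 39. Levels and sums of pathway lists are TMM-scaled CPM unless said otherwise, sums of cell type marker lists are CPM over the library total, and neither compares levels between genes. DESeq2 1.42.0 and limma 3.58.1 (voom) were alternatives, beside other scaling, no filter, a block for the replicate number, offsets for GC content and length, other sets of libraries, and each library left out. Scripts were tested on simulated data. Replicates were checked for duplicates: in 20 pairs of libraries the counts differed with a chi-square of 7.74 to 32.8 per degree of freedom.

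Lists are described by counts and medians, with no test. The 45 gene lists and the members were chosen with earlier results of these data known. Named genes are the 10 with the smallest p, since fewer than 10 were called, a set of core monocyte, stress and eIF2B genes, the called genes of the other contrasts, members of the lists with the smallest p or without overlap, and early-response genes singled out after their values were seen. Promoters came from RefSeq on GRCm38.p6.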

Additional observations from a re-analysis of the deposited data

Results flagged for a closer look

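The age difference of 7 genes differed between ISRIB monocytes and ISRIB macrophages by the test of the difference itself (monocytes minus macrophages, log2, edgeR adjusted p from 0.000978 to 0.0389). It was -3.84 for Col4a2, -4.39 for Ighm, -2.97 for Col4a1, 2.45 for Bambi, -2.0 for Zfp111 and 1.88 for Basp1. For Nxpe3 the fitted value was -6.76, which depends on the prior count because young macrophages had 0 counts. Mean levels of Bambi and Basp1 were higher in old than in young monocytes and lower in old than in young macrophages. In monocytes both genes overlapped between ages and neither difference was called (edgeR adjusted p = 0.302 and 0.601). In macrophages that of Basp1 was called (edgeR adjusted p = 0.00764) and that of Bambi was not (edgeR adjusted p = 0.121).

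In 7 of 106 groups of 4 or 5 libraries that were tested, 1 library lay apart from the others, and chance alone flags about 1 in 20 such groups. A530040E14Rik was at 9.1 CPM in old ISRIB replicate 1 and at 4.84 to 5.7 CPM in the other 4 old libraries. Ppp1r15a, which ends the integrated stress response, was at 114 CPM in young ISRIB replicate 2 and at 185 to 207 CPM in the others. Young ISRIB replicate 5 was apart for Vegfa, at 52.4 CPM beside 9.39 to 20.5, and for Thbs1, which encodes the matrix protein thrombospondin, at 6040 CPM beside 1020 to 1930. Basp1 was at 71.7 CPM in young ISRIB macrophage replicate 1 and at 95.4 to 98.5 CPM in the others. Cdkn2a (0.114 CPM in old ISRIB replicate 4) and Jchain (0.531 CPM in young ISRIB replicate 3) were each at 0 in the rest of their group. Where all other values are 0, any count is flagged, so the rate of 1 in 20 does not hold for such groups.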

How the results depend on the processing

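For old against young ISRIB monocytes the count of called genes was 0, and 0 with RLE size factors, the replicate block, GC and length offsets, or without young saline replicate 4 (a setting chosen after seeing the data). It was 41 with no filter, 33 with all 39 libraries, 14 with DESeq2 and 1 each with limma voom (Gm7609), the 10 libraries alone (Rbm3), and the replicate block with GC and length offsets (Rbm3); leaving out 1 library gave 0 to 17. For the difference from the saline age effect, 0 genes were called, but 12 with no filter and 22 with all 39 libraries. For saline monocytes the count was 3, against 15 with no filter, 41 with DESeq2, 1 with limma voom, 5 with GC and length offsets, 7 with the replicate block with or without those offsets, 0 with the 10 saline libraries alone and 34 with all 39; leaving out 1 library gave 0 to 8, with 0 without young saline replicate 2 or 3, 8 without replicate 4 and 1 without old saline replicate 1 or 3. For the difference from macrophages the count was 7, against 24 with no filter, 57 with DESeq2, 1 with limma voom and 6 with the replicate block; leaving out 1 library gave 4 to 21. The cause of these shifts was not tested. Between young and old ISRIB monocytes, the correlation of deviations between same-numbered libraries was low, at -0.016 to 0.128. Of these, 2 of 5 correlated best with their own number. The saline libraries were not compared in this way, so these values do not settle whether replicate numbers pair the samples. The sign turned only on leaving out 1 library, for 4 named genes near 0: Ppp1r15a ranged from -0.0188 to 0.2697, Eif2b2 from -0.1167 to 0.0642, Eif2b5 from -0.0672 to 0.0605 and Spp1 from -0.0596 to 0.564 on the log2 scale. Genes with few counts, such as Gm7609, Bmpr1a and Spp1, are limited by depth.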
